A study of Arabidopsis thaliana with 16 samples.

Results

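The transcripts described here are those of the plastid genome, measured by 69 probe sets of an Arabidopsis array in root RNA, out of 22746 probe sets that are not array controls. They were chosen as the probe sets that the array annotation gives to exactly 1 gene with a plastid locus. Each of the 69 stood for a different protein-coding gene, against 78 distinct protein-coding symbols listed for the plastid genome, and 8 further probe sets annotated to several genes, at least 1 of them plastid, were left out. By complex they were 15 genes of photosystem II, 5 of photosystem I, 6 of the cytochrome b6f complex, 6 of the ATP synthase, 10 of the NDH complex, the Rubisco large subunit gene rbcL, 4 of the RNA polymerase, 8 and 7 of the small and large ribosomal subunits, and 7 others (matK, ycf3, ycf4, accD, cemA, clpP and ccsA).

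All 16 arrays held root RNA of 5-day-old Arabidopsis thaliana seedlings of 1 genotype, gPUCHI:GR in the puchi-1 mutant, in which a fusion of the transcription factor PUCHI to the glucocorticoid receptor is expressed from the regulatory region of PUCHI itself. Dexamethasone (DEX) lets such a fusion enter the nucleus, the synthetic auxin naphthaleneacetic acid (NAA) starts auxin responses, and cycloheximide (CHX) blocks translation on cytosolic ribosomes. The 8 groups, with 2 arrays each, received for 4 h NAA, DEX and CHX together (NAA+DEX+CHX), NAA+CHX, DEX+CHX, CHX, NAA+DEX, NAA, DEX, or the 0.1% DMSO mock. CHX was given at 10 µM, DEX at 2 µM and NAA at 1 µM, to seedlings from agar plates under continuous light. Every group carried the fusion and the mutation, and no root without the fusion received DEX. The sources do not say whether the 2 arrays of a group came from separate plants or cultures of plants, so the p-values measure the spread between these samples.

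Plastids keep a small genome that encodes core subunits of the photosynthetic complexes, part of the plastid ribosome and the core of a bacterial-type RNA polymerase, while nuclear genes encode the remaining subunits and most regulators. Plastid ribosomes are of the bacterial type and are not the target of cycloheximide. Many plastid genes are transcribed as clusters and then cut into shorter RNAs, and in roots most plastids are colourless and lack the thylakoids of leaves. Plastid mRNAs carry no stable poly(A) tails, and the labelling kit named in the labels primes from poly(A), so an intensity here is the signal that this labelling gave and not the total amount of a plastid RNA. Intensities of different probe sets are on different scales and are not set against each other.

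The arrays had been scaled to a common level before deposit, with median intensities between 175.1 and 189, and arrays of a group correlated at 0.983 to 0.989 on the log2 scale. Of the named root markers, 3 of 18 were matched by name to a probe set annotated to 1 gene. PYK10, a root beta-glucosidase, read 11600 to 28784 on the 16 arrays, EXPA7 486 to 1079 and EXPA18 423 to 1653. Of 21 green tissue markers, 3 were matched in the same way. That the other markers were not matched does not show that the array lacks them. Rubisco activase RCA read 309 to 719, SBPASE 10.3 to 116 and PRK 1.42 to 49.1. Of the plastid probe sets, 46 lay above and 23 below the intensity of the median probe set, 218.1, averaged over all arrays. The lowest were ndhF, psaC, rps14, ndhG, rpoB, petD, psaA and atpI, with means between 10.1 and 25.5, and detection calls were not used here.

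The control probe set for the cytosolic 25S ribosomal RNA, a transcript that likewise has no stable poly(A) tail, moved with the treatments. It read 7195 to 7609 with CHX and NAA, 8367.7 to 10109.5 with CHX alone of these 2 agents, 10091 to 11379 with NAA and 11773 to 13889.5 with neither. Its mean log2 difference was -0.30 for NAA without CHX, -0.32 for NAA with CHX, -0.49 for CHX without NAA and -0.51 for CHX with NAA. The GAPDH controls, whose 3′ over 5′ signal tells of RNA integrity, gave ratios that ranged from 0.957 to 1.57, 0.763 to 1.24, 0.877 to 1.52 and 1.13 to 1.53 in the same 4 sets of arrays. The actin controls had far higher 3′ over 5′ ratios, at 15.3 to 22.3, 11.04 to 22.2, 20.6 to 33.5 and 15.5 to 21.7 in these sets. The plastid values move in the same direction as the 25S control, and the part of any of these controls in them was not tested.

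Plastid transcripts were lower with NAA and lower still with CHX. With NAA and CHX together, the mean of log2(intensity + 16) over the 69 probe sets was 7.77 ± 0.10, against 8.22 ± 0.21 with CHX and without NAA (SD, n = 4 arrays each, DEX states pooled). Without CHX it was 8.54 ± 0.14 with NAA and 9.04 ± 0.14 with neither (SD, n = 4 each). The 4 sets of arrays did not overlap. In bulk roots, fewer cells or plastids of a kind and less RNA in each cannot be told apart.

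Gene by gene, 39 of the 69 fell and 1 rose with NAA in the absence of CHX, at a limma adjusted p under 0.05. Among all probe sets, 37.8% were called in that comparison and 18.8% were called down and 19% up. With CHX present, 24 fell and none rose with NAA, where 4.47% of all probe sets were called, 3.09% down and 1.38% up. There, 42 members had an unadjusted p under 0.05, against 3809 of all 22746 probe sets. That count of 24 was the least stable of the 4, at 15 when only the arrays compared were fitted and at 10 and 4 with only the arrays without and with DEX. CHX gave 55 falls and no rise without NAA, where 63.9% of all probe sets were called 34.4% down and 29.5% up. With NAA present it gave 54 falls and 1 rise, against 64.3% called, 35.1% down and 29.1% up overall. The arrays of the 2 sides did not overlap for 36 and 18 members with NAA without and with CHX, against 37.5% and 9.65% of all probe sets. With CHX they did not overlap for 50 and 47 members without and with NAA, against 59.7% and 59.5%. The median log2 change of the 69 was -0.48 and -0.43 for NAA without and with CHX, and -0.82 and -0.78 for CHX without and with NAA. The median of all 22746 probe sets stayed between -0.01 and 0.00. The scaling of the arrays to a common level keeps that median near 0 in every comparison, and all changes given here are relative to it. With NAA 64 members without CHX and 63 with CHX had a change below 0, and with CHX 65 members without NAA and 64 with NAA.

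**Figure D1:**
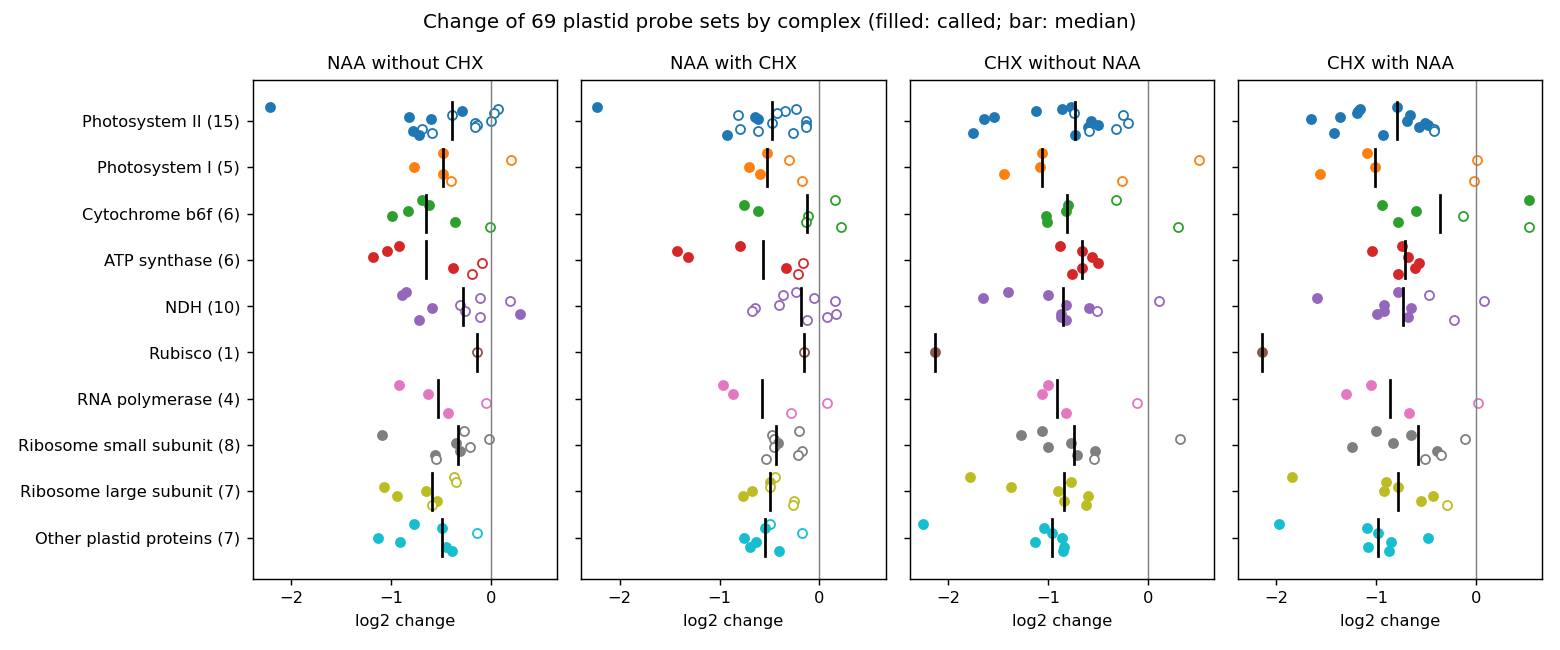
Log2 change of each of the 69 plastid probe sets (points), grouped by complex down the page with the number of genes in brackets, in 4 comparisons with DEX states pooled (4 arrays against 4); filled points passed the limma test and black bars are medians. Most points of every complex lie left of 0, psbA of photosystem II lies apart at -2.21 and -2.22 with NAA, and rbcL stands near -0.14 with NAA and near -2.13 with CHX.

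Calls were more frequent among bright probe sets. Of the 46 members above the median level, 30 fell and 1 rose with NAA without CHX and 44 fell with CHX in either background. Of the 23 below it, 9 fell with NAA without CHX, and 11 and 10 fell with CHX without and with NAA. Over all probe sets above the median level, 56.0% were called for NAA without CHX and 86.2% for CHX without NAA, in either direction. Below it the shares were 19.6% and 41.5%.

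Photosystem II splits water at the start of the light reactions, and its 15 genes showed both the largest NAA change among the 69 and a cluster with changes near 0. With NAA 6 of 15 fell without CHX and 4 with CHX, and with CHX 10 fell without NAA and 13 with NAA. The psbA gene encodes the reaction centre protein that is replaced fastest in light. It read 68.5 and 55.1 in NAA+DEX+CHX roots, 97.8 and 44.7 in NAA+CHX, 532 and 306 in DEX+CHX, and 255 and 397 in CHX roots. Without CHX it read 133 and 119 in NAA+DEX, 107 and 133 in NAA, 615 and 497 in DEX, and 659 and 758 in mock roots. All NAA arrays lay below all arrays without NAA in the same CHX state. The log2 change with NAA was -2.21 (SE 0.20, adjusted p = 1.64e-07) without CHX and -2.22 (SE 0.20, adjusted p = 7.04e-06) with CHX, so the fitted level was 0.216 and 0.214 times that without NAA. Its CHX changes of -0.77 and -0.79 were smaller, and without NAA the CHX and no-CHX arrays overlapped.

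With CHX without NAA, the largest falls within photosystem II were those of psbN, psbZ and psbC, while the small subunit genes psbF and psbL changed by -0.50 and -0.19, and psbL was not called. Next to the antenna gene psbC on the genome lies psbZ, which read 342 and 258 in NAA+DEX+CHX roots, 471 and 408 in NAA+CHX, 504 and 476 in DEX+CHX, and 652 and 633 in CHX roots. Without CHX its values were 917 and 1103 in NAA+DEX, 1364 and 1371 in NAA, 1862 and 1595 in DEX, and 1666 and 2059.8 in mock roots. The CHX sets stayed below the sets without CHX in both NAA states, and the NAA sets below their counterparts in both CHX states. The change was -1.64 (SE 0.10) with CHX alone of the 2 agents and -1.66 on top of NAA, and NAA lowered it by 0.60 and 0.61 without and with CHX. The inner antenna gene psbC changed by -1.54 and -1.37 with CHX and by -0.82 and -0.64 with NAA. The psbN probe set, for a membrane protein needed to assemble the photosystem, fell by 1.75 and 1.42 with CHX, while its NAA changes of -0.59 (adjusted p = 0.0573) and -0.27 were not called. psbH also fell in all 4 comparisons, by 0.72 and 0.92 with NAA and 0.73 and 0.93 with CHX. Its NAA call under CHX was lost when CHX replicate 2, DEX+CHX replicate 1, NAA+CHX replicate 2 or NAA+DEX+CHX replicate 1 was left out, with adjusted p between 0.0525 and 0.0755.

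The cluster psbE, psbF, psbL and psbJ encodes the 2 chains of the photosystem's cytochrome and small neighbours, and none of the 4 was called with NAA. psbF was at 824 to 996 with NAA and CHX, against 844 to 1115 with CHX and without NAA. Without CHX it was at 1237 to 1369.5 with NAA and 1301 to 1523 without, so the NAA and no-NAA arrays overlapped in both CHX states. The NAA changes of the 4 genes lay between -0.16 and 0.00 without CHX and between -0.48 and -0.13 with CHX. With CHX all 4 fell in NAA-treated roots (-0.69 to -0.48), and 3 of 4 fell without NAA (-0.60 to -0.50), psbL excepted at -0.19. The psbL fall in NAA-treated roots was lost without NAA+CHX replicate 1 (-0.33, adjusted p = 0.0796) or NAA+DEX replicate 2 (-0.41, adjusted p = 0.0636).

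Photosystem I passes electrons on to ferredoxin, and 3 of its 5 genes, psaB, psaI and psaJ, fell in all 4 comparisons. The psaI and psaJ genes encode small membrane subunits and psaB a reaction centre protein. psaJ read 132 and 159.8 in NAA+DEX+CHX roots, 117 and 156 in NAA+CHX, 229.8 and 202 in DEX+CHX, and 268 and 188 in CHX roots. The levels without CHX were 402 and 437 in NAA+DEX, 524 and 428 in NAA, 549.5 and 527 in DEX, and 749 and 712 in mock roots. No array of a CHX set reached the set without CHX, and the change was -1.44 (SE 0.12, adjusted p = 9.48e-09) without NAA and -1.56 (SE 0.12, adjusted p = 3.24e-09) with it. psaI changed by -1.07 and -1.01 with CHX and by -0.77 and -0.71 with NAA, and psaB by -1.06 and -1.09 with CHX and by -0.48 and -0.52 with NAA. The reaction centre gene psaA and the iron-sulphur gene psaC, with mean intensities of 24.6 and 16.6, passed in none of the 4.

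The cytochrome b6f complex carries electrons between the photosystems. With NAA 5 of its 6 genes fell without CHX and 2 with CHX, and with CHX 4 fell without NAA and 3 with NAA, where 1 rose. The cytochrome f gene petA read 584 and 505 in NAA+DEX+CHX roots, 568 and 495 in NAA+CHX, 936 and 799 in DEX+CHX, and 866 and 1098 in CHX roots. Without CHX it stood at 1055 and 889.5 in NAA+DEX, 1091 and 1155 in NAA, 1684 and 1389 in DEX, and 1727 and 1670.0 in mock roots. None of its 4 comparisons had overlapping arrays, with changes of -0.62 and -0.76 with NAA and -0.80 and -0.94 with CHX (SE 0.09). The cytochrome b6 gene petB fell by 1.01 and 0.78 with CHX and by 0.36 with NAA without CHX. petL, a small subunit, changed by -0.83 and -0.61 with NAA and by -0.82 and -0.60 with CHX, and the second of these calls was lost in 13 of 16 fits that left out 1 array, with adjusted p between 0.0532 and 0.155.

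The rise among the 69 genes with CHX was that of petN, another small b6f subunit with a low signal. It read 55.9 and 55.1 in NAA+DEX+CHX and 38.1 and 31.7 in NAA+CHX roots, against 29.8 and 16.6 in NAA+DEX and 29.3 and 29.8 in NAA roots. The change was 0.52 (SE 0.22, adjusted p = 0.0433). Without NAA the change was -0.32, from 63.3 and 62.1 in DEX+CHX and 32.8 and 12.4 in CHX roots, against 48.2 and 39.6 in DEX and 45.5 and 79.6 in mock roots. The call was lost in 11 of 16 fits without 1 array (adjusted p 0.0501 to 0.163), and by quantile normalization and by a pseudocount of 1. The fall of petN with NAA without CHX (-0.69) was lost without DEX replicate 1, NAA+DEX replicate 2 or mock replicate 2 (adjusted p 0.0604 to 0.0953). petG, also small, read 32.2 and 42.8 in NAA+DEX+CHX, 26.1 and 24.9 in NAA+CHX, 29.1 and 15.2 in DEX+CHX, and 32.6 and 80.7 in CHX roots. Its levels without CHX were 59.3 and 21.4 in NAA+DEX, 30.2 and 38.2 in NAA, 75.4 and 91.8 in DEX, and 99.97 and 81.2 in mock roots. Its higher values were those of DEX and mock roots and of 1 CHX array. It fell by 0.99 with NAA without CHX and by 1.02 with CHX without NAA, and by 0.11 and 0.13 in the other 2 comparisons, which were not called.

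The plastid ATP synthase makes ATP from the proton gradient, and its 6 genes fell with CHX in both NAA states (medians -0.66 and -0.72). With NAA the same 4 genes, atpA, atpF, atpH and atpE, fell with and without CHX. The membrane subunit gene atpF read 72.1 and 72.6 in NAA+DEX+CHX roots, 129.8 and 71.0 in NAA+CHX, 246 and 212 in DEX+CHX, and 271 and 285 in CHX roots. In the absence of CHX it read 170.1 and 146 in NAA+DEX, 192 and 266 in NAA, 353 and 364 in DEX, and 423 and 502 in mock roots. The 4 comparisons showed no overlap, and the change with NAA was -1.04 (SE 0.15, adjusted p = 2.74e-05) without CHX and -1.43 (SE 0.15, adjusted p = 3.48e-05) with it. Beside it lies atpH, the gene of the rotor ring, which was at 93.3 to 203 with NAA and CHX, against 284 to 418 with CHX and without NAA. Without CHX, atpH was at 169 to 300.4 with NAA and 444 to 621 without, and NAA changed it by -1.18 and -1.32. Its CHX changes were -0.55 and -0.69.

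The catalytic head genes of the same enzyme differed in their NAA calls. atpA, for the alpha subunit, changed by -0.93 and -0.79 with NAA, while atpB, for the beta subunit, changed by -0.19 (adjusted p = 0.127) and -0.22 (adjusted p = 0.255). Both fell with CHX, atpA by 0.88 and 0.75 and atpB by 0.76 and 0.78. The epsilon subunit gene atpE, which shares a cluster with atpB, fell by 0.38 and 0.33 with NAA and by 0.66 and 0.62 with CHX. Its NAA call under CHX was lost without DEX+CHX replicate 1, NAA+CHX replicate 1 or NAA+DEX+CHX replicate 1 (adjusted p 0.052 to 0.0569). The remaining membrane gene atpI, with a mean intensity of 25.5, changed by -0.09 and -0.16 with NAA, which were not called, and fell by 0.50 and 0.57 with CHX. The CHX calls were lost in 6 and 4 of 16 fits without 1 array, with adjusted p up to 0.145 and 0.1.

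**Figure D2:**
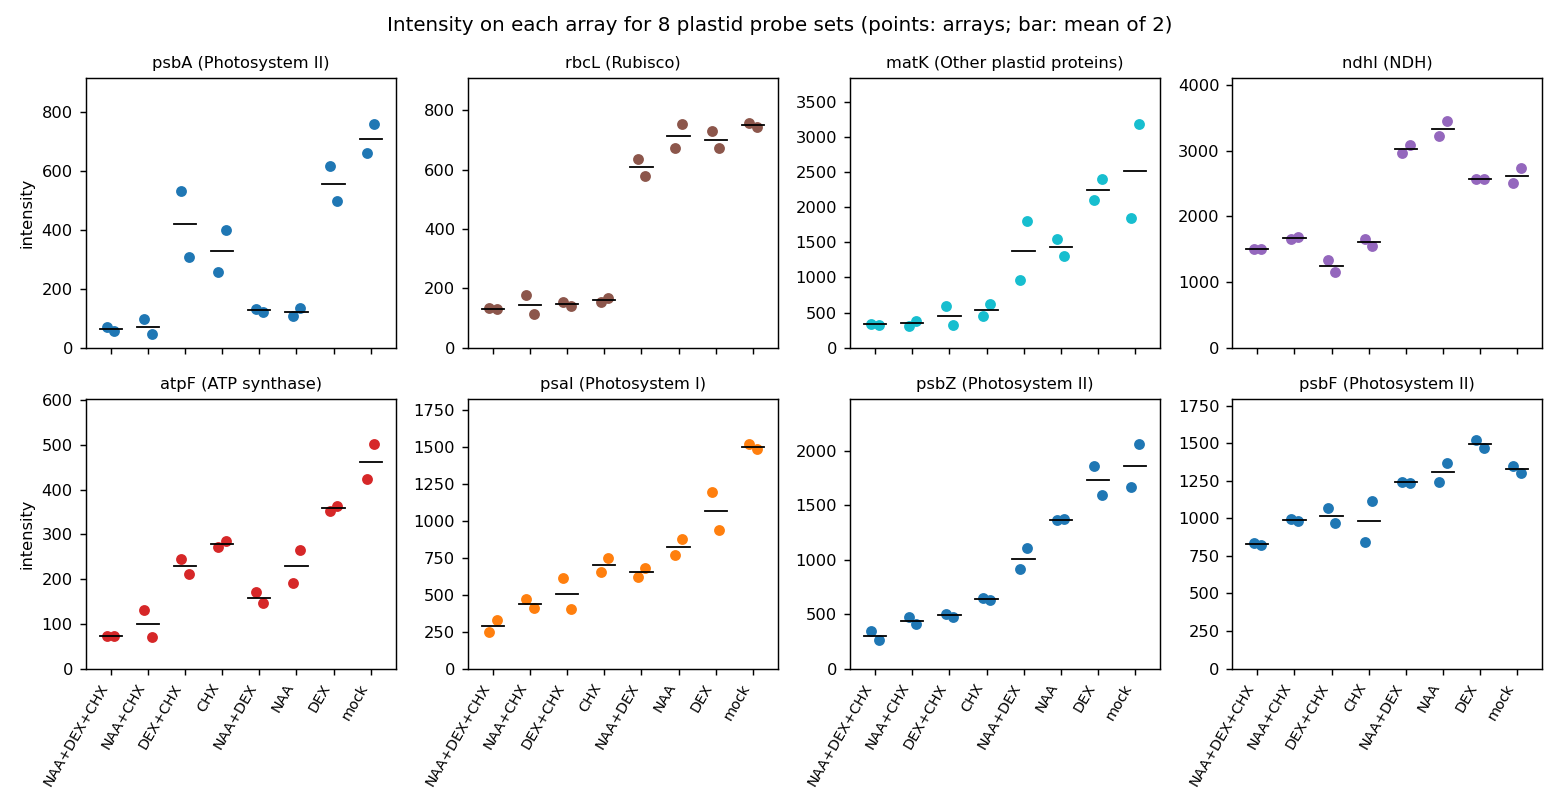
Intensity (linear axis from 0) on each of the 2 arrays (points) of the 8 groups for 8 plastid probe sets, with bars at the mean of 2. psbA is low in the 4 NAA groups whether or not CHX was given, rbcL and matK are low in the 4 CHX groups, ndhI is highest in NAA and NAA+DEX roots, and psbF varies least between 824 and 1523.

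The NDH complex cycles electrons around photosystem I, and its 10 genes held the only call upward with NAA in either CHX state. With CHX 8 fell without NAA and 7 with NAA, and with NAA 4 fell and 1 rose without CHX. With NAA under CHX none was called, and 3 of 10 had an unadjusted p under 0.05, against 3809 of all 22746 probe sets. ndhI, for an iron-sulphur subunit, read 1502 and 1503 in NAA+DEX+CHX roots, 1661 and 1678 in NAA+CHX, 1332 and 1152 in DEX+CHX, and 1660.1 and 1552 in CHX roots. Without CHX it stood at 2963 and 3086 in NAA+DEX, 3218 and 3451 in NAA, 2573 and 2575 in DEX, and 2506 and 2733 in mock roots. Without CHX, every NAA array exceeded every array without NAA, by 0.29 on the log2 scale (SE 0.06, adjusted p = 0.0011), a level 1.22 times as high. This call was kept in all 16 fits without 1 array, with changes from 0.26 to 0.32, and was lost when the DEX arrays alone were used. With CHX the NAA change was 0.17 (adjusted p = 0.161), and CHX lowered ndhI by 0.87 and 1.00.

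The largest NDH falls with CHX were those of ndhC, a membrane subunit gene. It read 373 and 334 in NAA+DEX+CHX roots, 413 and 335 in NAA+CHX, 466 and 292 in DEX+CHX, and 409 and 365 in CHX roots. Without CHX it read 1043 and 1179 in NAA+DEX, 1142 and 1141 in NAA, 1203 and 1075 in DEX, and 1190.3 and 1426 in mock roots. All CHX arrays lay far below all arrays without CHX. The change was -1.65 (SE 0.12) without and -1.59 (SE 0.12) with NAA, while NAA changed it by -0.11 and -0.06 with overlapping arrays. Its cluster neighbours ndhK and ndhJ, at mean intensities of 34.1 and 33.6, fell by 0.99 and 1.40 with CHX without NAA and by 0.89 and 0.85 with NAA without CHX. The NAA call of ndhK was lost without DEX replicate 1, NAA replicate 2, NAA+DEX replicate 2 or mock replicate 2 (adjusted p 0.0652 to 0.0756). That of ndhJ was lost without NAA+DEX replicate 2 (-0.63, adjusted p = 0.0864) or mock replicate 2 (-0.78, adjusted p = 0.054).

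Rubisco fixes carbon dioxide, and its large subunit gene rbcL had a fall with CHX and no call with NAA. It read 134 and 129 in NAA+DEX+CHX roots, 177 and 112 in NAA+CHX, 153 and 142 in DEX+CHX, and 153 and 166 in CHX roots. Without CHX it read 637 and 578 in NAA+DEX, 671 and 753 in NAA, 729 and 672 in DEX, and 757 and 743 in mock roots. The highest CHX array lay far under the lowest array without CHX, and the arrays with and without NAA overlapped within each CHX state. The CHX change was -2.13 (SE 0.11, adjusted p = 1.92e-11) without NAA and -2.14 (SE 0.11, adjusted p = 1.65e-11) with it, to 0.229 and 0.226 times the level without CHX. The NAA changes were -0.14 (SE 0.11, adjusted p = 0.382) and -0.15 (SE 0.11, adjusted p = 0.558).

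The plastid-encoded polymerase transcribes most photosynthesis genes. Of its 4 subunit genes, 3 fell with NAA without CHX and 2 with CHX, and 3 fell with CHX in each NAA state. rpoC2, for a large catalytic subunit, read 90.6 and 82.7 in NAA+DEX+CHX roots, 108 and 85.7 in NAA+CHX, 153 and 191 in DEX+CHX, and 221 and 218 in CHX roots. Without CHX it was at 147 and 164 in NAA+DEX, 223 and 334 in NAA, 362 and 389.6 in DEX, and 419 and 453 in mock roots. The arms did not overlap in any of the 4 comparisons, with changes of -0.92 and -0.97 with NAA and -1.004 and -1.05 with CHX. rpoC1, the next gene of the cluster, changed by -0.63 and -0.87 with NAA and by -1.06 and -1.30 with CHX. Its NAA calls were lost without mock replicate 2 (-0.54, adjusted p = 0.0568) and, under CHX, without NAA+CHX replicate 2 (-0.76, adjusted p = 0.0609). The alpha subunit gene rpoA, in a ribosomal cluster, changed by -0.43 and -0.29 with NAA, of which the first was called, and by -0.82 and -0.67 with CHX. Without NAA+DEX replicate 1 the NAA change of rpoA was -0.34 (adjusted p = 0.0511). rpoB, at a mean of 21.3, passed in none.

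Genes of the plastid ribosome fell as well, though not all of them, and rps14 and rps15 fell in none of the 4 comparisons. Of 8 small subunit genes, 4 and 1 fell with NAA without and with CHX, and 6 and 5 with CHX without and with NAA. Of 7 large subunit genes, 4 and 3 fell with NAA, and 7 and 6 with CHX. rps2 read 293 and 138 in NAA+DEX+CHX roots, 283 and 193 in NAA+CHX, 396 and 233 in DEX+CHX, and 269 and 369 in CHX roots. The arrays without CHX gave 256 and 327 in NAA+DEX, 339 and 538 in NAA, 598 and 643 in DEX, and 937 and 964 in mock roots. DEX and mock roots stood above the other 6 groups. With DEX states pooled, the changes were -1.09 with NAA without CHX and -1.27 with CHX without NAA. They were -0.48 (NAA) and -0.66 (CHX) where the other of these 2 agents was present, the first of which was not called. The fall of rps2 with CHX in NAA-treated roots was lost without replicate 2 of NAA, NAA+CHX, NAA+DEX or NAA+DEX+CHX (adjusted p 0.0506 to 0.0869). rps18 and rps16 fell with CHX by 1.00 and 1.06 without NAA and by 1.25 and 1.00 with NAA, and neither was called with NAA. rps4 fell in all 4 comparisons, by 0.35 and 0.42 with NAA and 0.77 and 0.84 with CHX. Its NAA change under CHX lost its call without DEX+CHX replicate 1 (-0.36, adjusted p = 0.0555) or NAA+CHX replicate 2 (-0.39, adjusted p = 0.0502).

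On the large subunit side, rpl33 read 319.7 and 221 in NAA+DEX+CHX roots, 283 and 245 in NAA+CHX, 525 and 266 in DEX+CHX, and 328 and 386 in CHX roots. The arrays without CHX gave 1032 and 919 in NAA+DEX, 1191 and 856 in NAA, 1155 and 1126 in DEX, and 1464 and 1455 in mock roots. The CHX arrays lay below all others, with changes of -1.78 and -1.85 (SE 0.16), while the NAA changes of -0.37 (adjusted p = 0.0855) and -0.44 (adjusted p = 0.16) were not called. rpl36 read 869 and 722 in NAA+DEX+CHX roots, 645 and 609 in NAA+CHX, 1236 and 621 in DEX+CHX, and 1006 and 1295 in CHX roots. Without CHX it stood at 1194 and 1142 in NAA+DEX, 1184 and 1399 in NAA, 2529 and 2161 in DEX, and 2997 and 2800.1 in mock roots. DEX and mock roots again stood above the rest. Its NAA change was -1.08 without CHX and -0.50 (adjusted p = 0.0784) with it, and its CHX change -1.36 without NAA and -0.79 with it. rpl16 and rpl14, of the same cluster, fell in all 4 comparisons, rpl16 by 0.94 and 0.76 with NAA and 0.60 and 0.43 with CHX, and rpl14 by 0.65 and 0.67 with NAA and 0.90 and 0.92 with CHX. The remaining large subunit fall with NAA under CHX was that of rpl20. Its call was lost in 14 of 16 fits that left out 1 array, where the changes ranged from -0.63 to -0.35. It was also lost in 8 of 9 other settings, among them quantile normalization and the replicate block.

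Among the 7 other genes, all 7 fell with CHX in both NAA states, and with NAA 6 fell without CHX and 5 with it. matK encodes a maturase that helps to splice plastid introns. It read 339.7 and 321 in NAA+DEX+CHX roots, 303 and 386 in NAA+CHX, 596 and 315 in DEX+CHX, and 455 and 618 in CHX roots. Without CHX it read 958 and 1800.1 in NAA+DEX, 1552 and 1307 in NAA, 2100.2 and 2402 in DEX, and 1856 and 3194 in mock roots. The CHX arrays lay below all arrays without CHX, and the change of -2.25 (SE 0.21) without NAA was the largest of the 69 in that comparison, with -1.97 (SE 0.21) on top of NAA. With NAA, matK changed by -0.77 without CHX and -0.49 (adjusted p = 0.235) with it, and the first was lost without NAA+DEX replicate 1 (-0.54, adjusted p = 0.0554) or mock replicate 2 (-0.57, adjusted p = 0.0526).

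The photosystem I assembly genes ycf3 and ycf4, the envelope protein gene cemA, the protease gene clpP and the cytochrome assembly gene ccsA fell in all 4 comparisons. ycf4 was at 50.0 to 70.0 with NAA and CHX, against 89.5 to 147 with CHX and without NAA. Without CHX it was at 78.0 to 105 with NAA, against 193 to 244 without, a change of -1.13 (SE 0.16), and the change under CHX was -0.75. The call under CHX was lost without CHX replicate 2, DEX+CHX replicate 1 or NAA+CHX replicate 2 (adjusted p 0.0536 to 0.0607), and the CHX call of ycf4 with NAA (-0.48) without NAA+CHX replicate 2 or NAA+DEX replicate 2 (adjusted p 0.0525 and 0.061). Under CHX, the NAA call of ycf3 (-0.55) was lost without CHX replicate 1, DEX+CHX replicate 1, NAA+CHX replicate 1 or NAA+DEX+CHX replicate 2 (adjusted p 0.0754 to 0.0887). That of ccsA (-0.41) was lost without replicate 2 of CHX or NAA+CHX, or either replicate of DEX+CHX or NAA+DEX+CHX (adjusted p 0.061 to 0.136). cemA changed by -0.91 and -0.63 with NAA and by -1.13 and -0.85 with CHX. accD, for a subunit of the acetyl-CoA carboxylase of fatty acid synthesis, changed by -0.14 (adjusted p = 0.309) and -0.17 (adjusted p = 0.445) with NAA, and fell by 0.95 and 0.98 with CHX.

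Across the complexes, 23 genes fell in all 4 comparisons, 4 each of photosystem II and the ATP synthase, 3 of photosystem I, 5 of the other genes, 2 each of the cytochrome complex, the polymerase and the large ribosomal subunit, and rps4. A further 16 fell with CHX in both NAA states and were called as falls with NAA in neither, among them rbcL, accD, atpB, ndhC, psbE, psbF and psbN. The 8 genes that fell in none were psbB, psaA, psaC, petD, ndhF, rpoB, rps14 and rps15. All 8 had mean intensities below that of the median probe set. The shares of all probe sets with these patterns were not counted.

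The same genes were measured in backgrounds that share no array, so the comparisons can be set beside each other. NAA changes without and with CHX correlated across the 69 genes at Pearson r = 0.731 and Spearman rho = 0.625, and CHX changes without and with NAA at r = 0.833 and rho = 0.741. These are descriptions across genes of the same arrays, and genes of a cluster are not independent. The 23 genes that fell with NAA in both CHX states were 23 of 39 without and 23 of 24 with CHX. With CHX, 50 genes fell in both NAA states, of 55 without and 54 with NAA. In both pairs the median absolute difference between the changes of a gene was 0.148, and 47 of 69 differed by less than 0.25. Taken over the 4 single backgrounds (each of the other 2 agents absent or present), 52 genes were below 0 with NAA in every one and 60 with CHX in every one. How often all probe sets fell in both states, or lay below 0 in every background, was not counted.

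**Figure D3:**
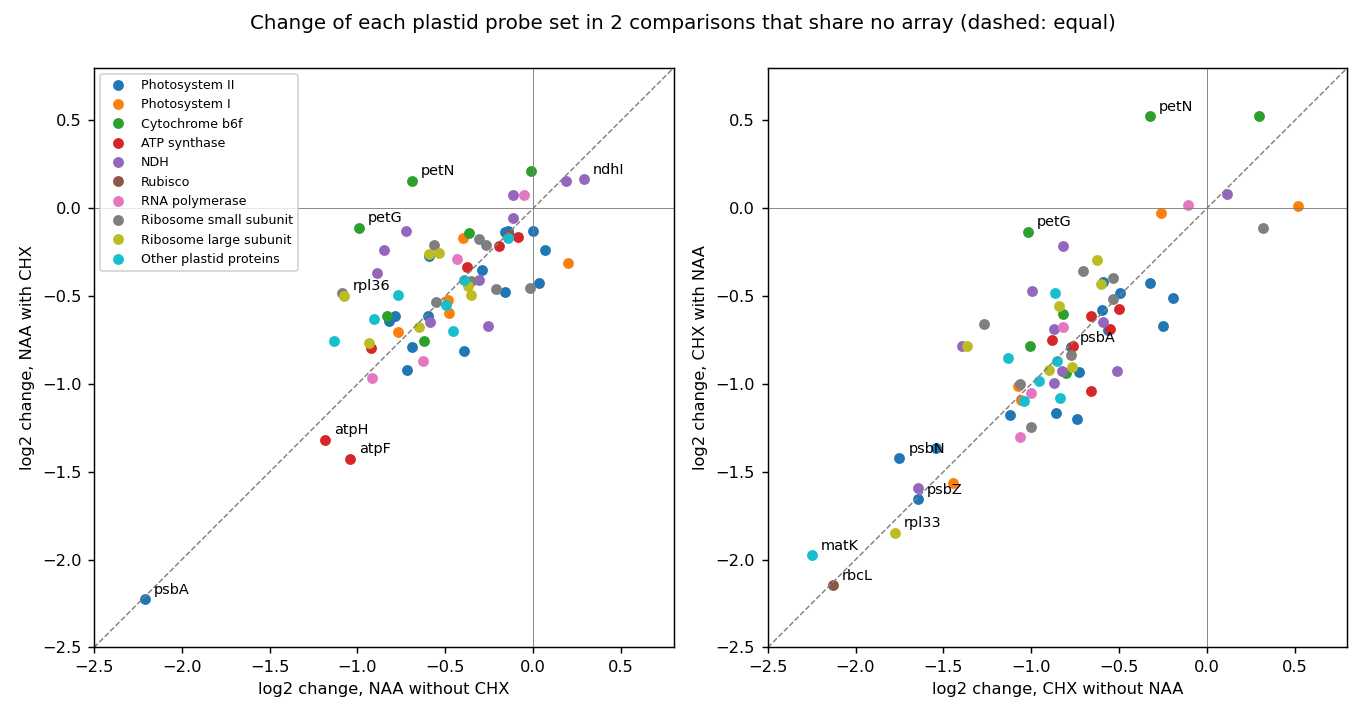
Log2 change of each plastid probe set with NAA without CHX (x) against NAA with CHX (y), left, and with CHX without NAA (x) against CHX with NAA (y), right, coloured by complex, with a dashed line of equal change. Points lie along the line in both panels (r = 0.731 and 0.833), psbA and rbcL lie on it at their extremes, and petN, petG and rpl36 lie above it on the left.

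Whether the NAA change itself depended on CHX was tested with the interaction term. None of the 69 passed in limma, against 24.3% of all probe sets. An unadjusted p under 0.05 was found for 7732 of all 22746 probe sets and for 5 of the 69. These were petN (0.85, adjusted p = 0.0548), rpl36 (0.58, adjusted p = 0.0597), rpl22 (0.28, adjusted p = 0.0609), petG (0.88, adjusted p = 0.0903) and psbK (-0.30, adjusted p = 0.116). A positive value means a higher change with NAA under CHX than without it, which can be a smaller fall or a rise. For petN, NAA under CHX changed the level by 0.45 without DEX and by -0.14 with DEX. The median interaction of the 69 was -0.015 on the log2 scale, against -0.003 for all probe sets, which the scaling also keeps near 0. Leaving out 1 array gave between 0 and 3 calls. Single calls appeared without mock replicate 1 (petN), DEX+CHX replicate 2 (psbK), NAA replicate 2 (rpl22), NAA+DEX+CHX replicate 1 (clpP) or NAA+DEX+CHX replicate 2 (rps2). 2 calls each appeared without CHX replicate 1 (rpoC1, petN), CHX replicate 2 (petG, rpl36), NAA+DEX replicate 1 (petG, petN) or NAA+CHX replicate 1 (atpF, psbK), and 3 without DEX+CHX replicate 1 (rpl36, rpl22, rps19).

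Along the plastid genome, neighbouring genes did not all share a size of change. For NAA without CHX, the median absolute difference between the changes of neighbours was 0.335 over 68 pairs, against 0.369 over all 2346 pairs of members, and 0.291 over 94 pairs within the listed transcription clusters. For CHX without NAA the same values were 0.321, 0.411 and 0.281. For NAA with CHX they were 0.209, 0.318 and 0.309, and for CHX with NAA 0.362, 0.45 and 0.291. With NAA the 7 measured genes of the rpl23 cluster fell without CHX, 4 of 5 of the atpI cluster and 4 of 5 of the accD cluster did so, and none of the 4 psbE cluster genes. In the rpl23 cluster the arrays did not overlap for 4 of the 7 genes. The call of rps3 there was lost in 8 of 16 fits that left out 1 array, where its changes ranged from -0.43 to -0.19. It was also lost in 4 of 9 other settings, among them quantile normalization and no variance trend. Within the accD cluster, the first gene accD changed by -0.14, while psaI, ycf4, cemA and petA behind it changed by -0.77, -1.13, -0.91 and -0.62. With CHX without NAA, ndhC changed by -1.65 and its neighbours on the other side, atpE and atpB, by -0.66 and -0.76, with rbcL next at -2.13.

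**Figure D4:**
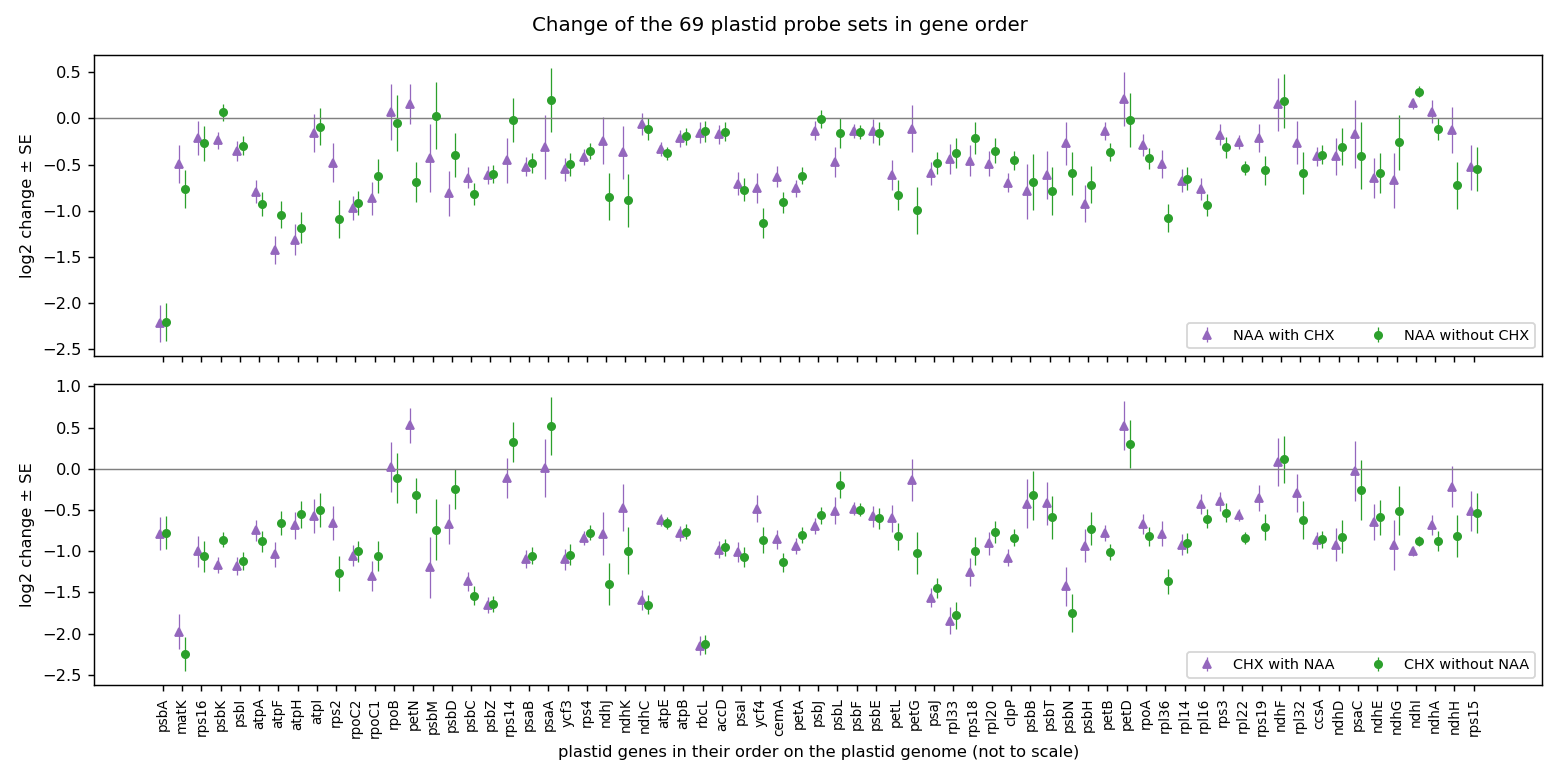
Log2 change (± SE) of the 69 plastid probe sets in their order on the plastid genome, not to scale, for NAA with CHX and without CHX (top) and CHX with NAA and without NAA (bottom). In each panel the symbols of 47 of 69 genes lie less than 0.25 apart, psbA stands lowest in the top panel and matK and rbcL in the bottom one, and the psbJ to psbE group lies between -0.16 and 0.00 for NAA without CHX.

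DEX, which releases PUCHI-GR, gave small shifts in the same direction and no called plastid gene. Averaged over the 4 backgrounds (8 arrays against 8), 64 of the 69 changes were below 0 with a median of -0.17, against -0.01 for all probe sets. The scaling of the arrays keeps the latter near 0. None of the 69 passed in limma, where 0.0791% of all probe sets did, and for none were all DEX arrays above or below all others, against 0.00879%. At an unadjusted p under 0.05 there were 26 of 69 members, against 1581 of all 22746 probe sets. In single backgrounds (2 arrays against 2) 0 members passed with DEX alone, DEX with NAA, DEX with CHX and DEX with both, against 0.022%, 0.0352%, 0.0132% and 0.0308% of all probe sets. In the same order, 7, 11, 11 and 7 members had an unadjusted p under 0.05, against 1068, 1634, 1508 and 1722 of all 22746 probe sets. The medians of the 69 were -0.22, -0.24, -0.17 and -0.10, and 27 genes were below 0 in all 4 backgrounds. The share of all probe sets below 0 in all 4 was not counted. Arrays with and without DEX did not overlap for 39, 39, 22 and 22 of the 69 (56.5%, 56.5%, 31.9% and 31.9%), against 33.1%, 39.1%, 34.6% and 35.1% of all probe sets.

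Array by array, the mean log2 level over the 69 genes was 7.72 and 7.68 in NAA+DEX+CHX roots, against 7.90 and 7.76 in NAA+CHX roots. It was 8.32 and 7.92 in DEX+CHX roots, against 8.21 and 8.41 in CHX roots, the pair that overlapped. Without CHX it was 8.43 and 8.42 in NAA+DEX roots, against 8.63 and 8.69 in NAA roots. It was 8.97 and 8.89 in DEX roots, against 9.12 and 9.19 in mock roots. The GAPDH 3′ to 5′ ratio had a median of 1.12 (0.763 to 1.57) on the 8 DEX arrays and 1.42 (0.957 to 1.53) on the 8 arrays without DEX. The actin ratio ranged from 13.5 to 33.5 with DEX and from 11.04 to 28.6 without, and the 25S control differed by -0.07 on average. The part of these controls in the DEX shift was not tested.

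The lowest adjusted p values for the DEX average were those of psaI and psbZ. psaI read 249 and 332 in NAA+DEX+CHX against 471 and 411 in NAA+CHX roots, and 613 and 403 in DEX+CHX against 656 and 750.4 in CHX roots. It read 624 and 680.5 in NAA+DEX against 771 and 881 in NAA roots, and 1195 and 939 in DEX against 1523 and 1487 in mock roots. In every background both DEX arrays were the lower ones. The average change was -0.48 (SE 0.09, adjusted p = 0.0537), and it passed without DEX replicate 1 (-0.52, adjusted p = 0.0464), without DEX+CHX replicate 1 (-0.55, adjusted p = 0.00968) and without NAA+DEX+CHX replicate 2 (-0.53, adjusted p = 0.0336). psbZ, whose arrays are given above, was lower with DEX in the 3 backgrounds with NAA or CHX and overlapped without them. Its average change was -0.36 (SE 0.07, adjusted p = 0.0671), and -0.41 (adjusted p = 0.0215) without NAA+DEX+CHX replicate 1. Without DEX+CHX replicate 1, rpl14 (-0.48, adjusted p = 0.00884) and rpl16 (-0.39, adjusted p = 0.0483) passed too. Without NAA+CHX replicate 2, ndhJ (-1.01, adjusted p = 0.0284) and atpH (-0.48, adjusted p = 0.0428) did.

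**Figure D5:**
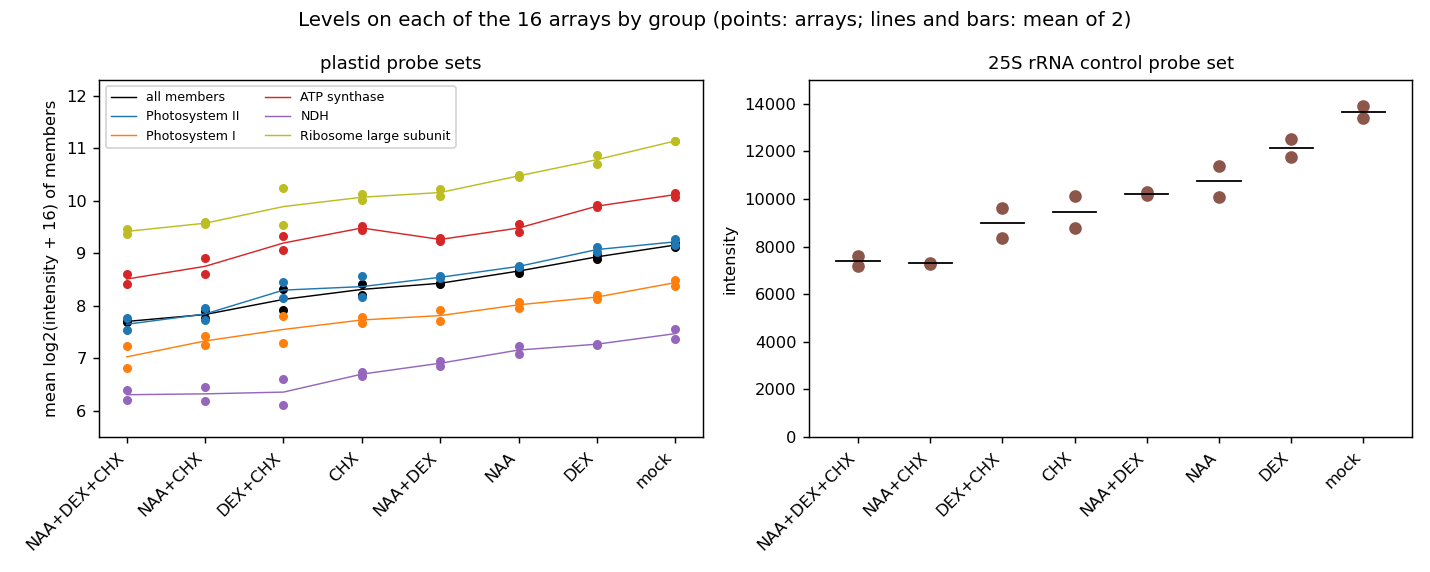
Left, mean log2(intensity + 16) of the plastid probe sets of 5 complexes and of all 69 members on each array (points; lines join group means). Right, intensity of the 25S ribosomal RNA control on the same arrays (bars: mean of 2). The mean of all members is lowest in NAA+DEX+CHX roots (7.68 and 7.72) and highest in mock roots (9.12 and 9.19), and the control spans 7195 to 13889.5; for the mean of all members, DEX and no-DEX arrays overlap only for CHX without NAA.

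Nuclear-encoded subunits and related proteins of the same complexes were measured by 20 probe sets matched by name. With NAA 9 of 20 fell without CHX (median -0.43), and none passed in limma with CHX (median -0.12). In the latter comparison 4 of the 20 had an unadjusted p under 0.05, against 3809 of all 22746 probe sets. With CHX 10 fell and 3 rose without NAA (median -0.65), and 9 fell and 5 rose with NAA (median -0.24). Of all probe sets, 37.8% and 4.47% were called with NAA without and with CHX, in either direction. The shares of all probe sets called with CHX were 63.9% and 64.3% without and with NAA. Whether the 20 were called more often than all probe sets was not tested. ATPC1, the nuclear gamma subunit of the ATP synthase, changed by -1.17 and -0.06 with NAA without and with CHX, and by -2.21 and -1.10 with CHX without and with NAA. Its interaction term of 1.11 (SE 0.17, adjusted p = 0.000107) passed. PSBW, a nuclear photosystem II subunit, changed by -1.08 and -0.34 with NAA and by -1.70 and -0.95 with CHX. NdhS, of the NDH complex, changed by -1.23 with NAA without CHX and by -1.46 with CHX without NAA. LHCB4.2, a photosystem II antenna protein, rose by 1.52 and 1.49 with CHX, and CRR22, an RNA editing factor for plastid transcripts, by 1.49 and 0.85. No nuclear partner passed in limma for the DEX average, none had an unadjusted p under 0.05, and the median was 0.06.

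The 23 mitochondria-encoded probe sets, from the other organelle genome, had medians below 0 in the same comparisons. These were -0.21 and -0.17 with NAA without and with CHX, -0.38 and -0.38 with CHX without and with NAA, and -0.16 for the DEX average. With NAA 6 fell and 2 rose without CHX and 3 fell with CHX, and with CHX 9 and 10 fell. The shares called with NAA were 34.8% and 13.0% without and with CHX, against 37.8% and 4.47% of all probe sets. With CHX they were 39.1% and 43.5% without and with NAA, against 63.9% and 64.3%. Of the pair of probe sets for nad5, of respiratory complex I, one fell by 1.41 and 1.46 with NAA without and with CHX, and the other changed by -0.33 and -0.44 and was not called. The difference between the 2 organelles' lists was not tested.

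Of the 3 measured green tissue markers, 1 fell with NAA without CHX. With NAA under CHX none was called or had an unadjusted p under 0.05. Their changes ran from -0.55 to 0.10 and from -0.32 to 0.27. With CHX 2 of them fell without NAA and 3 with NAA. Over all probe sets, 37.8%, 4.47%, 63.9% and 64.3% were called in these 4 comparisons. The summed level of the 3 measured ones, RCA, SBPASE and PRK, which are also among the 20 nuclear partners, was 353 to 460.5 with NAA and CHX, and 408 to 437 with CHX and without NAA. Without CHX it was 477 to 562 with NAA and 669.6 to 855 without. The sums with and without NAA overlapped under CHX. Most of the sum was RCA, at a median of 404 over the arrays, against 54.6 for SBPASE and 28.1 for PRK. The 3 root markers summed to 12805 to 14779.6 with NAA and CHX, 13602 to 19126 with CHX and without NAA, 25146 to 28719 with NAA and without CHX, and 25826 to 31253 with neither. PYK10, at a median of 20358, made up most of the root sum, against 643 for EXPA7 and 766 for EXPA18. None of the 6 was at 0 on any array, and their part in the plastid values was not tested.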

How the data were processed

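Root RNA of 16 samples (8 groups of 2) was measured on an Affymetrix 3′ array. The deposited table holds linear intensity values, made by the authors with Affymetrix Expression Console 1.3 per the submitters' processing notes. How probes were summarized is not given in the sources that were used. Every array had a trimmed mean of 500 to 500.1 after leaving out 2% at each end. Of 22810 probe sets, 64 controls were left out. The deposited intensity was tested as log2(intensity + 16) with limma 3.58.1 (R 4.3.3), with 1 mean per group over all 16 arrays and a variance trend. Benjamini-Hochberg adjustment ran over 22746 probe sets in each of 10 comparisons, and calls had an adjusted p under 0.05. Fold changes are on this scale, which understates those of dim probe sets, and the number of arrays limits the precision. Gene names came from the platform annotation and a RefSeq gene table (assembly TAIR10.1), used for names and gene order. The fit was tested on simulated data.

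Per complex and comparison, named genes were taken from the up to 3 called ones per direction with the largest changes, or the brightest member where none was called. Not all of these were described, among those left out being psbT, rps19 and ndhH for NAA without CHX. The calls of psbT and ndhH in that comparison were each lost in 6 of 16 fits that left out 1 array. For DEX every called gene was to be named, and other members were named as descriptions. Up to 3 called genes per direction were named from the other lists. Members and lists were chosen with earlier results of these data known, and the nuclear list was matched by symbol after the files were seen. Alternatives were quantile normalization, pseudocounts of 1 and 64, the 60% brightest probe sets, no variance trend, subsets of arrays, a replicate block and leaving out each array. Same-numbered replicates did not deviate together (correlations -0.046 to 0.064), so numbers were not treated as pairs. Figures were drawn with matplotlib 3.10.9.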

Additional observations from a re-analysis of the deposited data

How the results depend on the processing

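For NAA and CHX, none of the 174 called changes of plastid genes changed sign under any alternative. The 24 falls with NAA under CHX became 15 without the variance trend, 15 with only the arrays compared, 10 with only the arrays without DEX and 4 with only the arrays with DEX; the last 3 fits use fewer arrays, and the cause of the first was not tested. The interaction, with no call, had 1 call by quantile normalization (rpl36), 2 among the 60% brightest probe sets (rpl36 and rpl22), 1 without the variance trend (petN), 2 with a pseudocount of 64 (rpl36 and petN) and 1 with only the arrays without DEX (clpP). The DEX average had 2 calls among the 60% brightest (psaI, adjusted p = 0.0223, and psbZ, adjusted p = 0.0344), where fewer probe sets are tested. Leaving out 1 array at a time gave 30 to 42 calls for NAA without CHX, 16 to 25 for NAA with CHX, 51 to 57 for CHX without NAA, 50 to 56 for CHX with NAA, 0 to 3 for the interaction, 0 to 3 for the DEX average and 0 to 0 for each single-background DEX comparison, where the lone array of a group is assumed to vary like the other groups. The median change with DEX under CHX was -0.165 with all arrays and between -0.369 and 0.029 when 1 array was left out, above 0 without DEX+CHX replicate 2. With the replicate block there were 41 and 23 calls for NAA without and with CHX, 56 and 55 for CHX without and with NAA, and 0 for the interaction and the DEX average, and no count moved by over 1.5 times. Dim probe sets limit what can be called, since 23 of 69 members lay below the median probe set. The numbers of calls kept in all 16 fits without 1 array were 29 of 40, 15 of 24, 51 of 55 and 45 of 55 in the order given above.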

Other observations

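In some genes, most groups differed in the same direction between replicates, among them 1 bright and 1 dim photosystem gene. psbM, for a small photosystem II subunit and with a mean intensity of 4679, was higher on replicate 2 in 7 of 8 groups, with a median ratio of replicate 2 over replicate 1 of 1.92 (0.971 to 3.27). psaC, for the iron-sulphur subunit of photosystem I and with a mean of 16.6, was higher on replicate 2 in 1 of 8 groups, with a median ratio of 0.23 (0.041 to 1.93). psaB and rpl33 were likewise higher on replicate 2 in 1 of 8 groups, with median ratios of 0.833 and 0.878. These genes were picked after the values of all 69 genes were seen, and how many would do so by chance was not tested.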
